A study of Mus musculus with 12 samples.

Results

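The genes described here are 10 genes of the unfolded protein response and the integrated stress response, namely Hspa5, Hsp90b1, Pdia4, Xbp1, Dnajb9, Herpud1, Atf4, Ddit3, Trib3 and Asns. They were chosen by name, by a rule that holds no measured value, though earlier results of these data were known. All 10 were found by symbol among the 16821 genes in the files. RNA was sequenced from the livers of 12 C57BL/6J mice, all adult males, with 1 library from each. The 6 mice of the sedentary control group (Con 1 to Con 6) were kept in the room of the runners and did not run, and the 6 mice of the chronic exercise group (Exe 1 to Exe 6) ran on a treadmill at moderate intensity on 5 days of each week over 6 weeks, for 60 min at a time. No genetic change is named for either group. Both were bought at 8 weeks of age, their livers were perfused with saline, and tissue was taken within a day of the last run. Whole liver was used, so every value is a mixture over hepatocytes and the other cells of the organ.

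Proteins destined for secretion are folded in the endoplasmic reticulum (ER), and the liver makes most plasma proteins, so hepatocytes carry a large load of such proteins. When unfolded proteins build up, the sensors IRE1, PERK and ATF6 set off the unfolded protein response. IRE1 splices the mRNA of Xbp1, ATF6 is cut to release a transcription factor, and both raise chaperones and the machinery that removes misfolded proteins. PERK phosphorylates eIF2alpha, as do kinases that sense amino acid shortage, heme deficiency or double-stranded RNA. This common branch is the integrated stress response, in which translation of ATF4 rises and ATF4 drives genes of amino acid supply and, with CHOP, of cell death. Much of this regulation acts on splicing, translation and cleavage, which gene-level RNA values do not show.

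All 10 genes passed the filter of at least 1 FPKM (a level scaled to transcript length and library size, so that genes of different length can be compared) in at least 6 of the 12 mice. In 9 of them every mouse was at 1 FPKM or above, and for Asns only Exe 2 was below. Between Exe and Con mice, 0 of the 10 genes passed an adjusted p of 0.05 with an absolute log2 fold change over 1, and 0 did so when the fold change was left aside (limma on log2(FPKM + 1), Benjamini-Hochberg over the 10241 genes tested). Over all genes tested the share past both thresholds was 0%. The study applied these thresholds with DESeq, another test of differential expression, and reported genes past them. The 0% therefore describes the limma fit on FPKM only. At an unadjusted p of 0.05 from limma, 1 of the 10 passed, Pdia4, where 6.21% of all genes tested did so (4.27% higher and 1.94% lower in Exe mice). The fitted difference was above 0 for 6 genes and below 0 for 4, with a median log2 fold change of 0.05, against 57.5% of genes above 0 and a median of 0.016 over all genes tested. The groups overlapped for each of the 10 genes, while they did not for 0.254% of all genes tested. In whole liver, fewer cells of a type and less RNA per cell cannot be told apart.

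**Figure D1:**
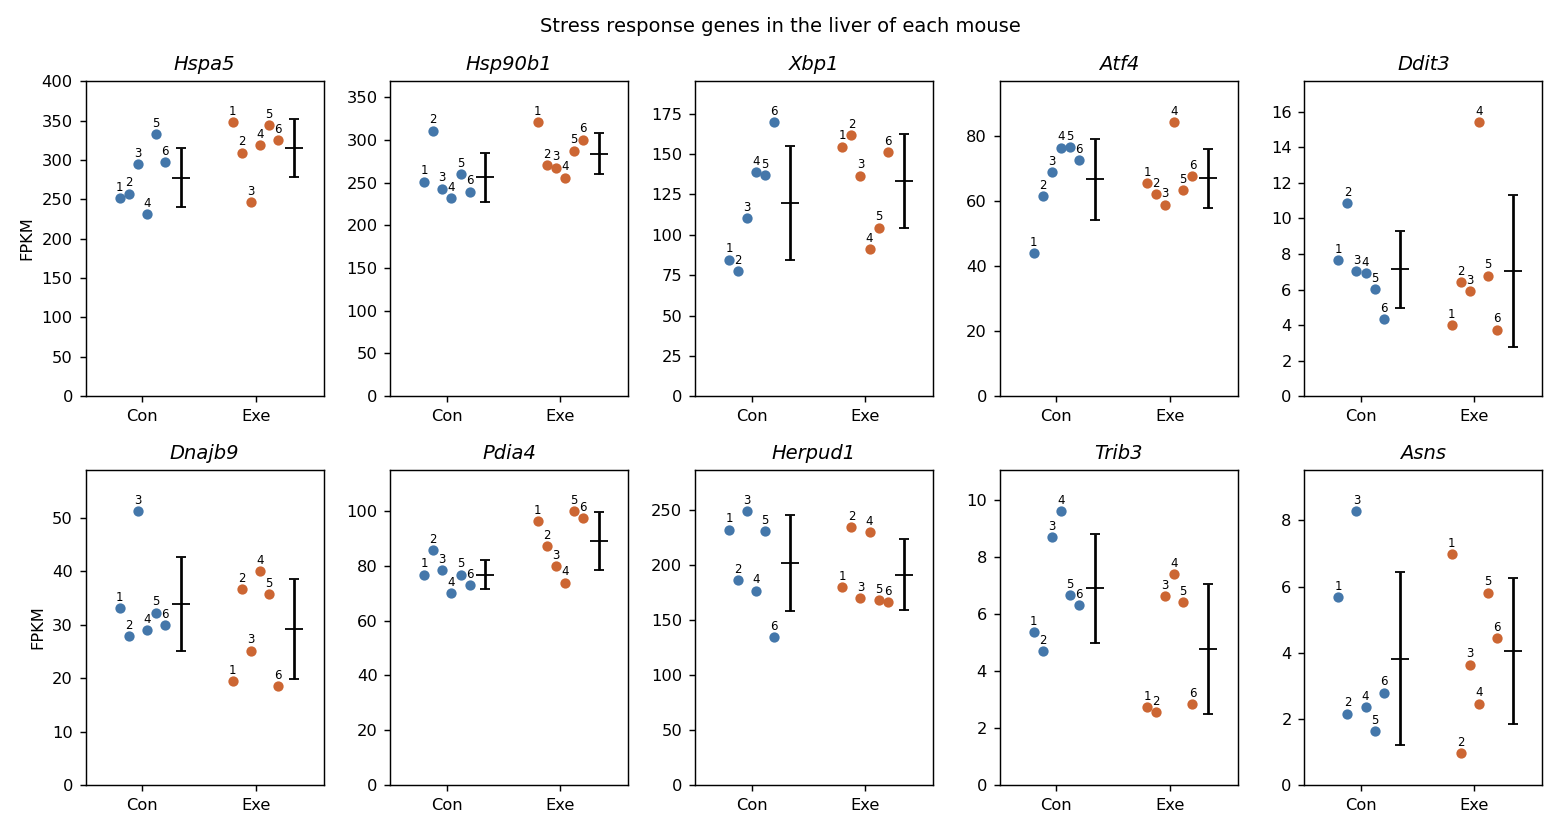
FPKM (vertical axes, linear, from 0) of the 10 genes in each Con mouse (blue) and each Exe mouse (orange), with the mouse number above each point, the group mean as a black dash and its SD as a bar. The groups overlap in every panel, and the 3 lowest points of Trib3 and of Dnajb9 are Exe mice.

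The chaperone genes Hspa5 and Hsp90b1 had the highest FPKM of the 10. Hspa5 (NCBI gene ID 14828) encodes BiP, the main HSP70 chaperone of the ER, which also holds the sensors inactive. It lay between 230.87 and 333.30 FPKM in Con mice (median 276.2) and between 246.15 and 348.17 FPKM in Exe mice (median 322.5). Con 5 was above all Exe mice except Exe 1 and Exe 5, Exe 3 was low, and the other 5 Exe mice were above the Con median. Its mean was 277.7 ± 37.6 FPKM in Con and 315.5 ± 37.0 FPKM in Exe mice (SD, n = 6 in each group). The log2 fold change was 0.19 (95% interval -0.03 to 0.40), with an adjusted p of 0.849 from limma and an exact two-sided permutation p of 0.11.

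Hsp90b1 (22027) encodes GRP94, the HSP90 chaperone of the ER. Con mice lay between 231.42 and 310.63 FPKM (median 246.9) and Exe mice between 255.67 and 320.63 FPKM (median 278.8). All 6 Exe mice were above the Con median, but Con 2 stood far above the other Con mice, of which the highest was at 260.14 FPKM. The log2 fold change was 0.15 (95% interval -0.02 to 0.32), with an adjusted p of 0.836 from limma and an exact two-sided permutation p of 0.0866. Without Con 2 the log2 fold change was 0.21 (unadjusted p = 0.0084, adjusted p = 0.842 from limma), without Exe 1 it was 0.11 and with quantile normalization 0.10.

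Pdia4 (12304), the gene with the smallest p of the 10, encodes ERp72, a protein disulfide isomerase that forms and rearranges disulfide bonds. It lay between 70.10 and 85.69 FPKM in Con mice (median 76.81) and between 73.84 and 100.08 FPKM in Exe mice (median 91.77). Exe 1, Exe 2, Exe 5 and Exe 6 were above every Con mouse, Exe 3 was within their range and Exe 4 was lower than all Con mice except Con 4 and Con 6. Means were 76.82 ± 5.31 FPKM in Con and 89.13 ± 10.7 FPKM in Exe mice (SD, 6 mice each), which is 1.16 times the Con mean. The log2 fold change was 0.21 (95% interval 0.04 to 0.38), with an unadjusted p of 0.0213 and an adjusted p of 0.793 from limma, and an exact two-sided permutation p of 0.0411. This p was over 0.05 in 4 of the 21 alternatives, where the log2 fold change stayed between 0.16 and 0.19. The unadjusted p from limma was 0.0507 without Exe 5, 0.0505 without Exe 6, 0.0833 with quantile normalization between mice and 0.0629 with the red blood cell covariate.

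The promoters of 5 of the 10 genes held a motif of this response and are shown here to set the chaperone genes beside the genes of amino acid supply. Promoter sequences of RefSeq (build GRCm38.p6, from 250 bases before to 50 bases after the gene start) were matched by symbol for all 10 genes. They were searched on both strands for the ER stress response element ERSE (CCAAT and CCACG with 9 bases of any kind between them), the shorter ERSE-II (ATTGG and CCACG with 1 base of any kind between them), the XBP1 element UPRE (TGACGTGG) and the ATF4 element CARE (TGATGNAA). Of 32841 promoters, ERSE was found in 0.119%, ERSE-II in 0.0365%, UPRE in 0.676% and CARE in 3.97%. Among the 10616 promoters of genes tested here, these shares were 0.151%, 0.0848%, 0.754% and 2.35%. Hspa5 (chr2:34771840-34772139, plus strand) held 1 ERSE at bases -65 to -47 from the gene start, and Hsp90b1 (chr10:86705395-86705694, minus strand) held 2, at -212 to -194 and, on the other strand, at -107 to -89. Herpud1 (chr8:94386179-94386478, plus strand) held an ERSE-II at -52 to -42 and a CARE on the other strand at -112 to -105. Asns (chr6:7693160-7693459, minus strand) held a CARE at -23 to -16, and Trib3 (chr2:152344011-152344310, minus strand) held a CARE on the other strand at 15 to 22 after the start. No motif overlapped another. The sequences are given 5′ to 3′ on the strand of the gene, with the matched motifs in capitals.
Hspa5: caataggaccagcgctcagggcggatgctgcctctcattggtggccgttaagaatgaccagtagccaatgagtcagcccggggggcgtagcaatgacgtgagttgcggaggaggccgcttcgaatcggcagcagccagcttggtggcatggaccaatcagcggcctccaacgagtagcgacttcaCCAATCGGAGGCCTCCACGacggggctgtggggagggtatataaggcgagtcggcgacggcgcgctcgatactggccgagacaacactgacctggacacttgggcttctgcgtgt
Hsp90b1: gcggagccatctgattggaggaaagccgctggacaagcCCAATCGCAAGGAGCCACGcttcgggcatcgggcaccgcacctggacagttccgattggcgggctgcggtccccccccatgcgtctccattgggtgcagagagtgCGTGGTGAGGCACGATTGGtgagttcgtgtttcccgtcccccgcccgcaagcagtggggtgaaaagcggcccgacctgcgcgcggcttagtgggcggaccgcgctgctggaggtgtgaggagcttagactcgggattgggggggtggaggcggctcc
Herpud1: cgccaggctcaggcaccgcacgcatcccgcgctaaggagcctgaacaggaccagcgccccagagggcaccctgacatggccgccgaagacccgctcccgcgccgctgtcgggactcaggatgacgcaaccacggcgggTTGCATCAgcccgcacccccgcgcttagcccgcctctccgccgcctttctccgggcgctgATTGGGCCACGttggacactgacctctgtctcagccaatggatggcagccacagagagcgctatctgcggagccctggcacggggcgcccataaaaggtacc
Asns: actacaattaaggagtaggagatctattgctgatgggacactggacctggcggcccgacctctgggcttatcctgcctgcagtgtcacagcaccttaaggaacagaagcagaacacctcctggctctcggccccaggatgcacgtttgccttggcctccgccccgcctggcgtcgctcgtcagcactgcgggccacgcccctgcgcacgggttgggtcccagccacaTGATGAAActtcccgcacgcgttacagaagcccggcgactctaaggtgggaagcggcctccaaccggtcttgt
Trib3: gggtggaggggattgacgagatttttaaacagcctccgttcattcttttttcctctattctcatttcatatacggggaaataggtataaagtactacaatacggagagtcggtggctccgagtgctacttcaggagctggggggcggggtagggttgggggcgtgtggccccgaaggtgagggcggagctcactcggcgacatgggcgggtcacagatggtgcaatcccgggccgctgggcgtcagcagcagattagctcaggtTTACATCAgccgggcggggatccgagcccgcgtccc

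In the windows of Pdia4, Xbp1, Dnajb9, Ddit3 and Atf4 none of these letters were found, which says nothing of sites elsewhere. UPRE was found in 0 of the 10 windows. Of the other genes of the pathway, taken from lists that hold none of the 10, ERSE was found in 6 of the 19 ER chaperone genes with a promoter in the table (Calr, Canx, Creld2, Dnajc3, Ero1b and Pdia6), and CARE in 10 of 30 ATF4 targets. These matches describe the sequence and were not tested.

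The regulators and targets of the IRE1 and ATF6 branches come next. Xbp1 (22433), the transcription factor downstream of IRE1, lay between 77.30 and 169.82 FPKM in Con mice (median 123.6) and between 91.22 and 161.62 FPKM in Exe mice (median 144.0). Con 1, Con 2, Exe 4 and Exe 5 were low, and Con 6 was the highest of all 12 mice. Exe mice differed from Con mice by a log2 fold change of 0.18 (95% interval -0.25 to 0.60), with an adjusted p of 0.937 from limma. It was 0.06 without Con 2, 0.09 without Con 1, 0.28 without Exe 4 and 0.29 without Con 6, and 0.11 to 0.12 with the acute-phase covariate, the red blood cell covariate or quantile normalization. Spliced and unspliced Xbp1 are not separated in these values.

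Dnajb9 (27362) encodes ERdj4, a co-chaperone of BiP and a known target of spliced XBP1. Con mice lay between 27.83 and 51.33 FPKM (median 31.1) and Exe mice between 18.50 and 39.99 FPKM (median 30.41). Exe 1, Exe 3 and Exe 6, at 19.50, 25.15 and 18.50 FPKM, were below every Con mouse, while Exe 2, Exe 4 and Exe 5 were above all Con mice except Con 3. Its log2 fold change was -0.24 (95% interval -0.67 to 0.20, adjusted p = 0.929 from limma). It was -0.11 without Con 3, -0.14 without Exe 1 and -0.12 without Exe 6.

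Herpud1 (64209) encodes a membrane protein that takes part in ER-associated degradation, the removal of misfolded proteins to the proteasome. It lay between 134.27 and 248.82 FPKM in Con mice (median 208.5) and between 165.94 and 233.92 FPKM in Exe mice (median 174.5). Exe 2 and Exe 4 were high, at 233.92 and 229.43 FPKM, and the other 4 Exe mice lay between 165.94 and 179.58 FPKM. Its log2 fold change was -0.06 (95% interval -0.38 to 0.25, adjusted p = 0.969 from limma), and without Con 3 it was 0.01.

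Atf4 (11911), the transcription factor of the integrated stress response, lay between 43.92 and 76.53 FPKM in Con mice (median 70.81) and between 58.94 and 84.30 FPKM in Exe mice (median 64.41). Con 1 was the lowest and Exe 4 the highest of the 12 mice. The group means of 66.68 ± 12.5 and 67.02 ± 8.98 FPKM (SD, n = 6) gave a log2 fold change of 0.02 (95% interval -0.25 to 0.30, adjusted p = 0.988 from limma). Its sign changed with quantile normalization, to -0.01, with the acute-phase covariate, to -0.04, without Con 1, to -0.09, and without Exe 4, to -0.05.

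Ddit3 (13198) encodes CHOP, a target of ATF4 that promotes cell death under lasting ER stress. In Con mice it lay between 4.35 and 10.87 FPKM (median 6.98) and in Exe mice between 3.74 and 15.41 FPKM (median 6.17). Exe 4 was at 15.41 FPKM, more than 2 times the next Exe mouse (6.78 FPKM), and the lowest values of all mice were those of Exe 6 and Exe 1 (3.98 FPKM). For Ddit3 the log2 fold change was -0.11 (95% interval -0.68 to 0.46, adjusted p = 0.969 from limma). It was -0.34 without Exe 4, and it was between 0.00 and 0.02 without Con 2, Exe 1 or Exe 6 and with the red blood cell covariate.

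Trib3 (228775) encodes a pseudokinase that is induced by ATF4 and CHOP and restrains AKT signaling in the liver. Con mice lay between 4.71 and 9.62 FPKM (median 6.485) and Exe mice between 2.56 and 7.41 FPKM (median 4.625). Exe 1, Exe 2 and Exe 6, at 2.74, 2.56 and 2.84 FPKM, were below every Con mouse, and the other 3 Exe mice were within the Con range. Means were 6.897 ± 1.91 FPKM in Con and 4.763 ± 2.27 FPKM in Exe mice (SD, 6 mice each), which is 0.691 times the Con mean. This was the largest absolute log2 fold change of the 10 genes, at -0.52 (95% interval -1.04 to 0.0044), with an unadjusted p of 0.0517 and an adjusted p of 0.799 from limma and an exact two-sided permutation p of 0.104. On the log2(FPKM + 1) scale the change of a gene this low is understated, and with a pseudocount of 0.1 it was -0.62 (unadjusted p = 0.0496 from limma). With the red blood cell covariate it was -0.68 (unadjusted p = 0.0213, adjusted p = 0.95 from limma), and with each mouse left out it lay between -0.65 and -0.40.

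Asns (27053) encodes asparagine synthetase, which makes asparagine and is a classical target of ATF4 in amino acid shortage. It lay between 1.63 and 8.29 FPKM in Con mice (median 2.57) and between 0.97 and 6.99 FPKM in Exe mice (median 4.035). Con 3, Exe 1, Exe 5 and Con 1 were high, so that the high mice came from both groups. For Asns the log2 fold change was 0.09 (95% interval -0.69 to 0.86, adjusted p = 0.985 from limma). Without Exe 2 it was 0.33, and it was below 0, between -0.07 and -0.01, without Con 2, Con 5, Exe 1 or Exe 5.

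**Figure D2:**
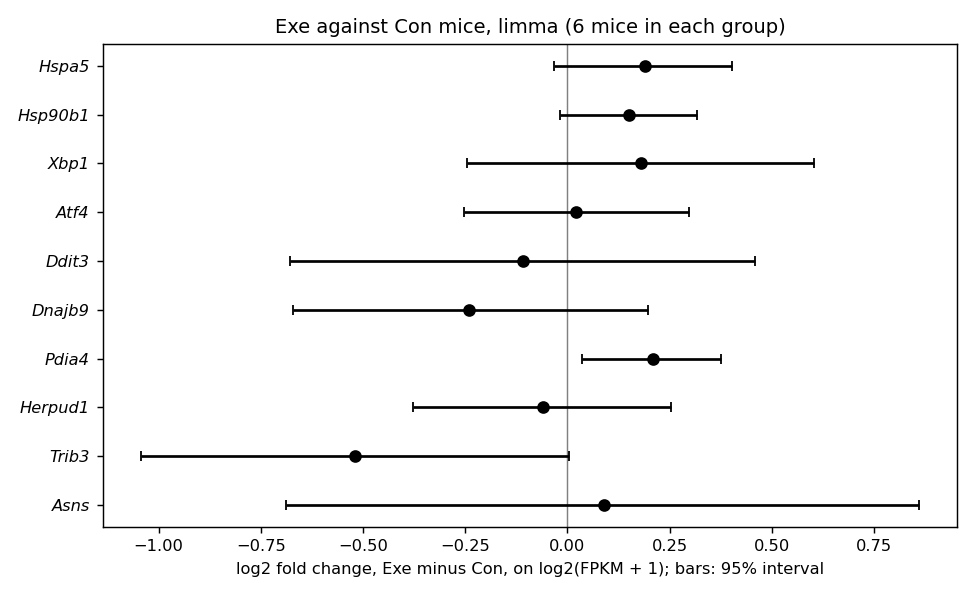
Log2 fold change of the 10 genes on the log2(FPKM + 1) scale (horizontal axis, Exe minus Con), with the 95% interval from limma as bars and 6 mice in each group. The interval of Pdia4 lies above 0 (0.04 to 0.38), and that of Asns is the widest.

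The order of levels was led by Hspa5, at a mean of 296.6 FPKM over the 12 mice, followed by Hsp90b1 (269.7), Herpud1 (196.2), Xbp1 (126.5), Pdia4 (82.97), Atf4 (66.85), Dnajb9 (31.58), Ddit3 (7.091), Trib3 (5.83) and Asns (3.935). Atf4 was above Dnajb9, and Dnajb9 above Ddit3, in all 12 mice. The order of neighbours was least constant for Ddit3 and Trib3 (7 of 12 mice), Trib3 and Asns (9 of 12) and Hspa5 and Hsp90b1 (9 of 12), which lay within the spread between mice, and the other pairs held in 10 or 11 mice.

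The genes also differed in how much they varied between mice of the same group. The within-group SD on the log2 scale was 0.14 for Hsp90b1 and Pdia4, at percentiles 47.5 and 51.2 of all genes tested, and 0.19 for Hspa5. It was 0.25 for Atf4, 0.29 for Herpud1, 0.39 for Xbp1 and 0.40 for Dnajb9. The most variable were Trib3 (0.48), Ddit3 (0.53) and Asns (0.72, percentile 99.2), and the highest mouse was above the lowest 3.76-fold, 4.12-fold and 8.55-fold for these genes. The median over all genes tested was 0.14. For Ddit3, Trib3 and Asns, which have low FPKM, counting error cannot be separated from this spread, since read counts were not used here.

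The way the 10 genes moved together from mouse to mouse was described with 45 pairwise correlations of log2(FPKM + 1) over 12 mice. Median r was -0.05, and 21 of 45 were positive. By Pearson's r 7 pairs passed an unadjusted permutation p of 0.05 and 2 passed it after Benjamini-Hochberg adjustment over the 45 pairs, and by Spearman's rho these counts were 6 and 1.

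Hsp90b1 and Pdia4 were high in the same mice, with Pearson's r 0.858 (permutation p = 0.00067, adjusted 0.0241) and Spearman's rho 0.853 (permutation p = 0.00073, adjusted 0.0328). With quantile normalization r was 0.815 (adjusted permutation p = 0.0288) and rho 0.718 (0.225), and centred on the group means r was 0.801 (0.0342) and rho 0.839 (0.0531). Of all genes tested 0.0293% had an r with Hsp90b1 at least as high. Without Exe 1 and Con 2, the mice farthest from the median of Hsp90b1, r was 0.917 (permutation p = 0.00018) and rho 0.879 (adjusted permutation p = 0.063). Exact permutation tests within each group of 6 gave r = 0.907 among Con mice (unadjusted p = 0.0139, adjusted 0.312). Among Exe mice r was 0.84 (unadjusted p = 0.0472, adjusted 0.385). Spearman's rho was 0.771 in each group (exact permutation p = 0.103). Within either group 0 of the 45 pairs passed the adjustment. With each mouse left out in turn, r stayed between 0.826 and 0.909, and the adjusted permutation p was over 0.05 without Con 4 (0.0596), Con 5 (0.0511), Con 6 (0.0675), Exe 1 (0.0562) or Exe 3 (0.0504). Hspa5 was less closely tied to this pair, with an r of 0.573 to Pdia4 (rho 0.524) and 0.426 to Hsp90b1 (rho 0.559), permutation p = 0.0533 and 0.167 for r and 0.0832 and 0.0627 for rho.

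Xbp1 and Ddit3 went in opposite directions, with Pearson's r -0.794 (permutation p = 0.00107, adjusted 0.0241) and Spearman's rho -0.79 (permutation p = 0.00303, adjusted 0.0682). With quantile normalization r was -0.838 (adjusted permutation p = 0.0139) and rho -0.839 (0.0441). An r with Xbp1 this low was seen for 0.596% of all genes tested. In the Con mice alone r was -0.904 and rho -0.943 (exact permutation p = 0.00833 and 0.0167, 6 mice). In the Exe mice alone r was -0.824 and rho -0.6 (exact permutation p = 0.0264 and 0.242, 6 mice). Neither r passed the adjustment (0.312 and 0.385). Without Con 1 and Con 2, the farthest from the median of Xbp1, r was -0.811 (permutation p = 0.00238) and rho -0.673 (adjusted permutation p = 0.583). Centred on the group means, r was -0.795 (adjusted permutation p = 0.031) and rho -0.755 (0.135). Exe 4 held the lowest Xbp1 of the Exe mice and the highest Ddit3 of all mice, and without it r was -0.817 (adjusted permutation p = 0.0362). With each mouse left out in turn, r stayed between -0.831 and -0.749. The adjusted permutation p was then over 0.05 without Con 2 (0.0961), Con 3 (0.0547), Con 4 (0.0596), Con 5 (0.0511), Con 6 (0.0675), Exe 1 (0.0562) or Exe 3 (0.0504).

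Trib3 was low in mice with high Hsp90b1 and Pdia4, with an r of -0.73 to Hsp90b1 (rho -0.706, permutation p = 0.00799 and 0.0127, adjusted 0.12 and 0.191) and -0.699 to Pdia4 (rho -0.643, permutation p = 0.0118 and 0.0274, adjusted 0.133 and 0.246), so neither passed the adjustment. To Hspa5 its r was -0.414 (rho -0.364, permutation p = 0.182 and 0.247). Centred on the group means, the r to Hsp90b1 was -0.634 and that to Pdia4 -0.568. Without Exe 1 and Con 2 the r to Hsp90b1 was -0.682, and without Exe 5 and Exe 6 the r to Pdia4 was -0.861 (adjusted permutation p = 0.0304). When single mice were dropped, the adjusted permutation p for Hsp90b1 was under 0.05 only without Exe 2 (r -0.832, adjusted p = 0.0187), and that for Pdia4 only without Exe 5 (r -0.886, adjusted p = 0.00967). Exe 1 and Exe 6 shared high Hsp90b1 and Pdia4 with low Trib3, Ddit3 and Dnajb9.

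For Atf4 and its targets no correlation passed. Its r was 0.307 to Trib3 (rho 0.552), 0.109 to Ddit3 (rho 0.0) and -0.323 to Asns (rho -0.189), with permutation p of 0.338, 0.725 and 0.315 for r and 0.0672, 1.0 and 0.558 for rho. The r of Trib3 and Asns was 0.076 (rho 0.049, permutation p = 0.812 and 0.887). With 12 mice these tests do not show that the genes were unrelated.

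**Figure D3:**
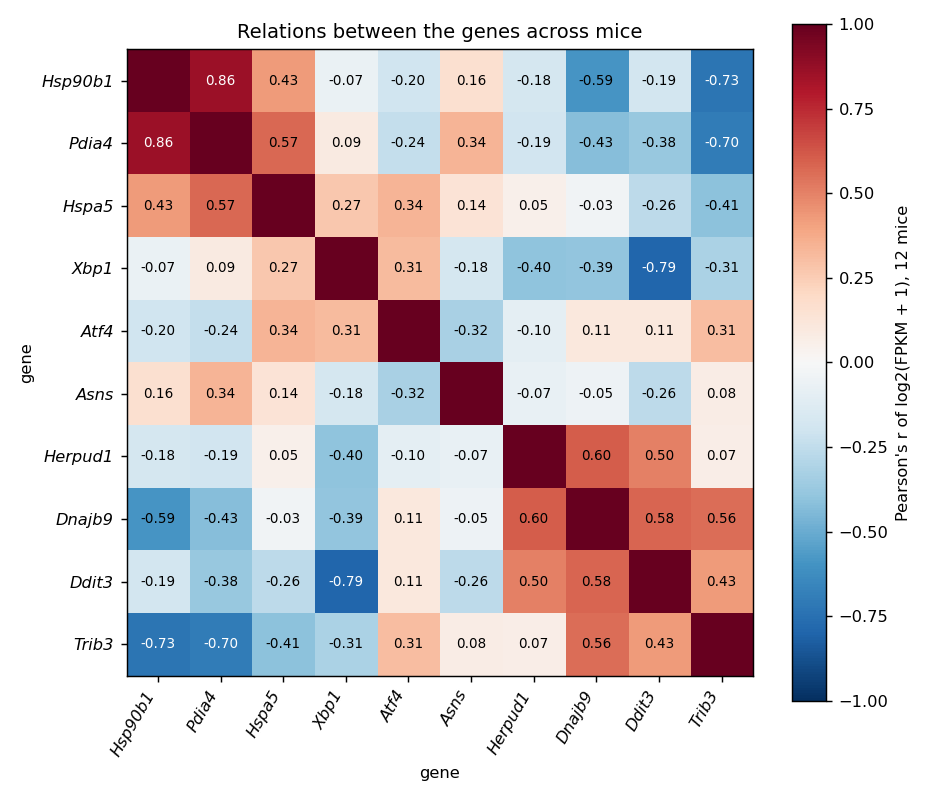
Pearson's r of log2(FPKM + 1) over the 12 mice for each pair of the 10 genes (rows and columns), with red for positive and blue for negative values. Hsp90b1 and Pdia4 (0.86) and Xbp1 and Ddit3 (-0.79) are the strongest pairs.

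**Figure D4:**
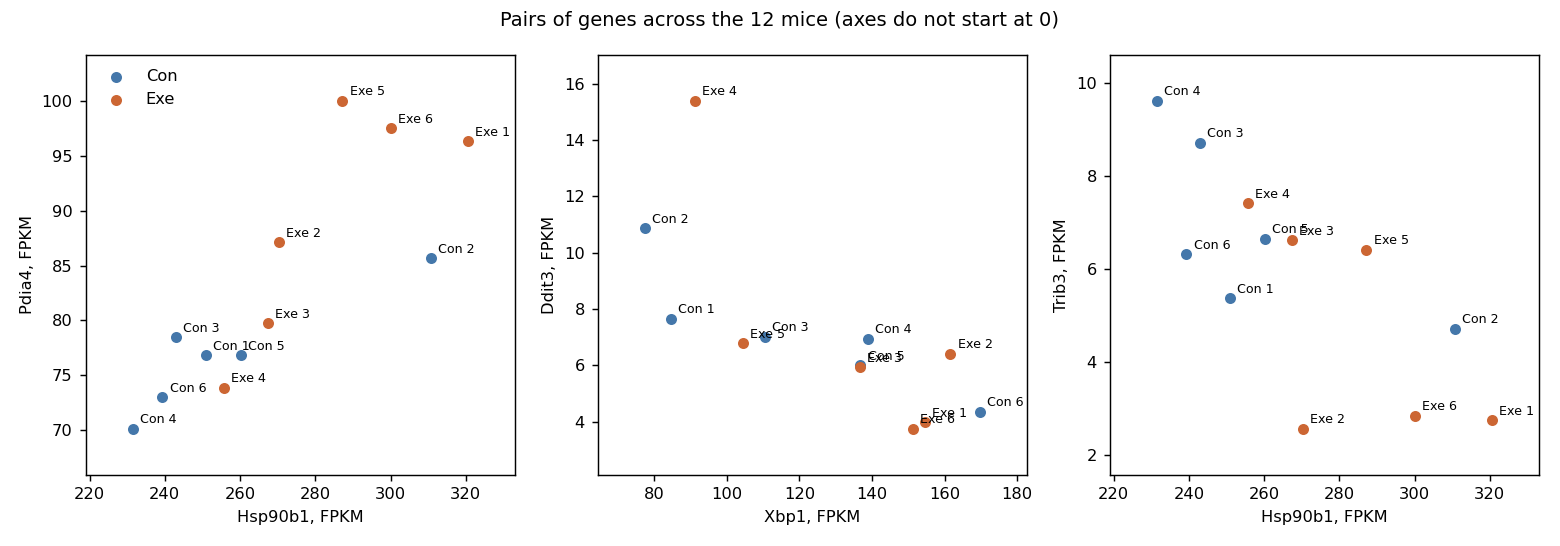
FPKM of Hsp90b1 against Pdia4 (left), Xbp1 against Ddit3 (middle) and Hsp90b1 against Trib3 (right), a point for each of the 12 mice, Con in blue and Exe in orange, on linear axes that do not start at 0. Exe 5, Exe 6 and Exe 1 are at the top right of the first panel, and Exe 4 is at the top left of the second.

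For each of the 10 genes, the genes outside the 10 with the highest Pearson's r over the 12 mice were listed as a description, with no test. For Hspa5 they were Hyou1 (r 0.934) and Manf (0.88), an ER chaperone and a secreted ER stress protein. Mcfd2, which carries coagulation factors out of the ER, was among those of Pdia4 (0.909), and C330018D20Rik was listed for both Pdia4 (0.927) and Hsp90b1 (0.859), the latter also with Hikeshi (0.863), a carrier of HSP70 proteins to the nucleus. Xbp1 went with Aacs (0.954), an enzyme that feeds ketone bodies into lipid synthesis, and with Wdr45b (0.934). Trib3 went with Junb (0.946), an immediate early gene, and with Hsd17b2 (0.934), and Ddit3 with Rnf152 (0.961) and Phf23 (0.938). For Atf4 they were Kyat3 (0.889) and Pias1 (0.88), for Dnajb9 Cog3 (0.923) and Dlg1 (0.919), for Herpud1 Heatr6 (0.824) and Mfn1 (0.819), and for Asns C8a (0.832) and Ppt1 (0.826). With 10241 genes and 12 mice, high values are found by search alone.

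The other genes of the pathway were taken from 4 lists that hold none of the 10 and were chosen with earlier results of these data known. Of 23 ER chaperones and foldases, 21 were higher in the exercise group and 2 were lower, and their median log2 fold change was 0.144 against 0.016 for the whole table. From limma, 8 of them (34.8%) had an unadjusted p under 0.05, all higher in Exe mice, where 4.27% of all genes tested did so. Of the 23 genes 0 passed an adjusted p of 0.05. These genes were measured in the same mice and can move together, as Hyou1 and Manf of the list did with Hspa5 (Pearson's r 0.934 and 0.88). The counts of 21 and 8 are therefore not made of independent observations, and the list was not tested as a set. The same holds for the counts of the other lists. Sil1, the nucleotide exchange factor of BiP, lay between 46.42 and 51.09 FPKM in Con and between 53.93 and 59.38 FPKM in Exe mice, so its groups did not overlap (log2 fold change 0.19, unadjusted p = 0.000824, adjusted p = 0.58 from limma). It had the smallest p of the list. The groups did not overlap for 1 of the 23 genes, beside 0.254% of all genes tested. Calr, the lectin chaperone calreticulin, was at 501.2 ± 81.3 FPKM in Con and 598.4 ± 48.3 FPKM in Exe mice (SD, n = 6; log2 fold change 0.27, adjusted p = 0.793 from limma).

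P4hb, a disulfide isomerase, was at 502.0 ± 32.3 and 558.3 ± 27.6 FPKM (log2 fold change 0.15), Uggt1, which checks glycoprotein folding, at 8.208 ± 0.305 and 9.183 ± 0.597 FPKM (0.14), and Erp44, which retains unassembled proteins, at 14.57 ± 0.988 and 15.99 ± 0.765 FPKM (0.13). The remaining genes of the 8 were Canx, Dnajc3 and Ppib, named after their values were seen, with log2 fold changes from 0.11 to 0.17. The count of 8 was 2 with quantile normalization and 4 without Exe 6, and it was 5 without Con 3, without Exe 1 or without Exe 2. The count of genes higher in Exe mice was 20 or 21 under each of the alternatives run. Those alternatives reuse the same mice and genes, so they do not add independent observations. With the mean of 5 red blood cell genes as a covariate 2 passed and 21 were higher, and with the mean of 9 hepatocyte genes 7 passed and 21 were higher. The median log2 fold change of the list was 0.142 with the red blood cell covariate, 0.151 with the hepatocyte covariate and 0.112 with quantile normalization. The share of all genes that were higher at this p was 3.42% with the red blood cell covariate and 3.43% with quantile normalization.

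In each of the remaining lists 1 gene passed an unadjusted p of 0.05 from limma, too few to compare with the share of all genes tested. Of 20 genes of ER-associated degradation 15 (75.0%) were higher in Exe mice (median 0.034), where 57.5% of all genes were. Of them 1 (5.0%, beside 4.27% of all genes) was higher at an unadjusted p of 0.05, Edem1, which recognises misfolded glycoproteins, at 25.92 ± 0.937 FPKM in Con and 29.71 ± 1.63 FPKM in Exe mice (SD, n = 6; log2 fold change 0.19, unadjusted p = 0.00169, adjusted p = 0.657 from limma). With quantile normalization 11 of the 20 were higher. Derl2, next in order, was at 28.30 ± 2.48 and 31.03 ± 3.19 FPKM (unadjusted p = 0.11 from limma).

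Of 20 sensors and regulators 11 (55.0%, beside 57.5% of all genes) were higher in Exe mice (median 0.021). Higher at an unadjusted p of 0.05 was 1 of them (5.0%, beside 4.27% of all genes), Ern1, the gene of IRE1, at 11.40 ± 1.92 FPKM in Con and 14.30 ± 3.13 FPKM in Exe mice (SD, n = 6; log2 fold change 0.29, unadjusted p = 0.0477, adjusted p = 0.799 from limma). Eif2ak4, the gene of the amino acid sensor GCN2, was at 1.477 ± 0.247 and 1.755 ± 0.192 FPKM (unadjusted p = 0.0578 from limma). Of 25 ATF4 targets tested, 11 were higher and 14 lower (median -0.02, range -0.52 to 0.10). There 1 (4.0%) passed, Sesn2, an inhibitor of mTORC1 signaling, at 2.487 ± 0.433 FPKM in Con and 1.885 ± 0.414 FPKM in Exe mice (SD, n = 6; log2 fold change -0.28, unadjusted p = 0.0245, adjusted p = 0.793 from limma), where 1.94% of all genes tested were lower at this p. Of these targets 0 were higher at an unadjusted p of 0.05 from limma, beside 4.27% of all genes. Slc38a2, an amino acid transporter, was at 27.25 ± 7.05 and 21.05 ± 4.58 FPKM (log2 fold change -0.35, unadjusted p = 0.0588 from limma).

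**Figure D5:**
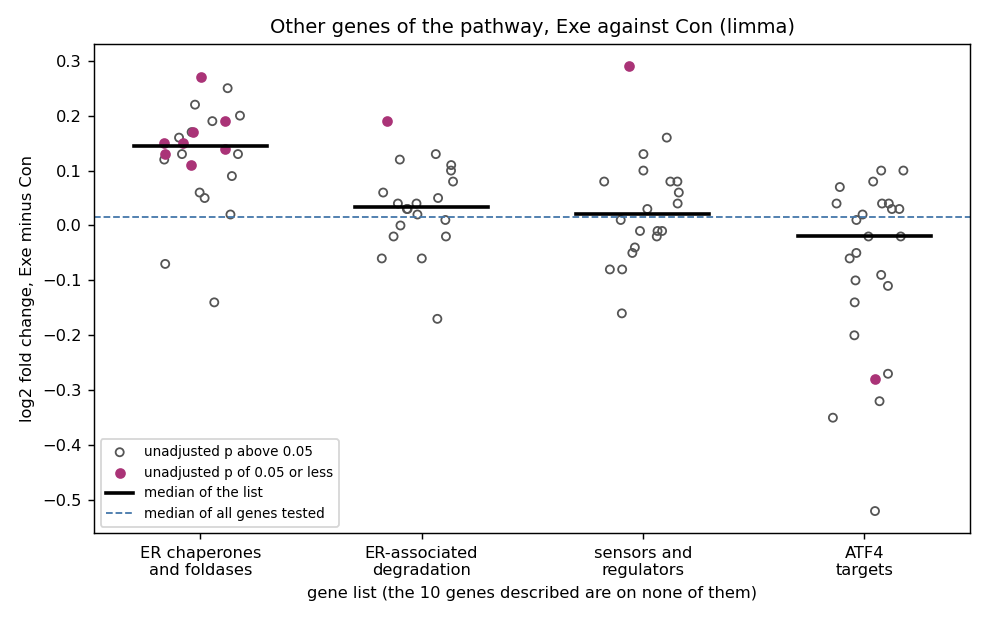
Log2 fold change (vertical axis, Exe minus Con, limma) of the genes of 4 lists that hold none of the 10 genes, with filled points for an unadjusted p of 0.05 or less, a black bar at the median of the list and a dashed line at the median of all genes tested (0.016). The ER chaperones lie highest, with a median of 0.144 and 21 of 23 above 0, beside 57.5% of all genes tested. The genes of a list come from the same mice, so the points are not independent observations.

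Markers of other cells and states were summed per mouse. All 9 hepatocyte markers were above 100 FPKM in every mouse, and their sum lay between 58790 and 75320 FPKM in Con and between 66430 and 82800 FPKM in Exe mice. The sum of 5 red blood cell genes lay between 235.1 and 902.9 FPKM in Con (median 415.4) and between 400.3 and 1290 FPKM in Exe mice (median 707.5), highest in Exe 5. Of 6 genes of B and plasma cells, whose ER is rich in the same chaperones, the sum lay between 3.19 and 5.83 FPKM in Con and between 5.34 and 8.61 FPKM in Exe mice, and Ms4a1 was at 0 in 1 mouse. Of 8 genes of pancreatic acinar cells, the sum lay between 8.56 and 17.00 FPKM in Con (median 11.97) and between 12.94 and 30.03 FPKM in Exe mice (median 15.75), highest in Exe 5, and Amy2a5, Pnlip, Ctrb1, Cpa1, Cpb1 and Prss2 were at 0 in 8 to 10 of the 12 mice. Of the 8 acinar genes 1 passed the filter, Cela1, at 7.65 to 16.4 FPKM and highest in Con 4 (log2 fold change 0.165). Chaperone values lay higher in the group with higher median sums of hepatocyte, red blood cell, B and plasma cell and pancreatic acinar genes. That group also had the lower median of acute-phase genes. A sum follows its highest genes, so it does not give the share of a cell type. The part of these cells was not tested beyond the hepatocyte and red blood cell covariates above and the acute-phase covariate given next. Without Exe 5 the log2 fold change of Pdia4 was 0.17, against 0.21 with all mice.

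The summed level of 8 acute-phase genes lay between 8770 and 44610 FPKM in Con mice (median 23900) and between 8782 and 45100 FPKM in Exe mice (median 13330), highest in Exe 5 and Con 1. Of the 8 genes 0 were higher in Exe mice, and their median log2 fold change was -0.314. Each of the 10 genes was set against the mean log2 level of these 8 genes and against Dbp, an output gene of the circadian clock, since the animals were handled over a span of hours in their active phase. Of these 20 relations 0 passed the adjustment (smallest adjusted permutation p 0.225 for Pearson's r) and 2 passed an unadjusted permutation p of 0.05, both with the acute-phase genes. Atf4 was lower in mice with more acute-phase RNA (r -0.666, rho -0.678, permutation p = 0.0112 and 0.0186, n = 12), and within groups r was -0.767 in Con and -0.509 in Exe mice. Asns was higher in such mice (r 0.591, rho 0.51, permutation p = 0.0451 and 0.0931), with r of 0.589 and 0.66 within groups. Without the 2 mice farthest in acute-phase RNA these r were -0.502 and 0.528, and with quantile normalization they were -0.545 and 0.578 (permutation p = 0.0593 and 0.0509), so that 0 of the 20 passed. With Dbp the r of the 10 genes lay between -0.364 (Hsp90b1) and 0.445 (Dnajb9). That of Hspa5 was 0.375 (rho 0.385, permutation p = 0.23 and 0.217), and centred on the group means it was 0.672 (rho 0.559, permutation p = 0.0163 and 0.0619, adjusted 0.163 and 0.37). With the acute-phase mean as a covariate the log2 fold change of Pdia4 was 0.23 (unadjusted p = 0.00723, adjusted p = 0.7 from limma), that of Hsp90b1 0.17 and that of Atf4 -0.04. The sum of 11 clock genes lay between 133.6 and 240.2 FPKM in Con and between 127.9 and 223.7 FPKM in Exe mice.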

How the data were processed

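Total RNA of whole liver (TRIzol) from 6 Con and 6 Exe mice was run on the DNBseq platform, and groups were taken from the labels. After trimming and quality filters, the authors mapped reads with HISAT (genome GRCm39) by the study's methods. The submitters' processing notes also list Bowtie2 and mm10, with no role given, so which of these lies behind the FPKM is not settled. Their deposited values are FPKM per gene. By the methods of the study, a principal component analysis served to exclude outlying animals, and how many is not stated there. The tool that computed the FPKM, the annotation release, strandedness and any scaling between mice are not given in the sources used here. FPKM summed to between 735200 and 820107 per mouse. The depth in reads is unknown, so the spread between mice is the only error given, and reads of overlapping or antisense genes cannot be told apart. No 2 files were identical, and Spearman's rho between mice, across genes, was between 0.981 and 0.987.

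The members, gene lists and tests were chosen with earlier results of these data known. FPKM are not counts, so no count model was used, and log2(FPKM + 1) was fitted here with limma 3.58.1 (trend, R 4.3.3) for the 10241 genes with at least 1 FPKM in at least 6 mice. Single genes were also tested with an exact permutation test (924 divisions, smallest p 0.00216), and correlations with 100000 permutations or, within groups, exactly. Other steps used scipy 1.17.1, pandas 2.3.3, numpy 2.4.6, matplotlib 3.10.9 and Python 3.11.15. List symbols were matched directly or through RefSeq synonyms, for 20 of 20 sensors, 23 of 23 chaperones, 20 of 20 degradation genes and 34 of 35 ATF4 targets, of which 25 passed the filter.

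Genes named were the 10 members, the genes of each list past an unadjusted p of 0.05 (at most 5, at least 2), the 2 genes most correlated with each member, and marker genes. Other list genes were named for a motif in their promoter or, where stated, after their values were seen. Alternatives were quantile normalization, a pseudocount of 0.1, no filter, a mean of at least 5 FPKM, robust moderation, the replicate number as a block, an acute-phase covariate and each mouse left out. Hepatocyte and red blood cell covariates, correlations with each mouse left out, and the alternatives for the acute-phase and Dbp relations were added after seeing the data.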

Additional observations from a re-analysis of the deposited data

Results flagged for a closer look

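Within each group of 6 mice, the highest or lowest FPKM was compared with its nearest neighbour by Dixon's ratio, at its 95% critical value. Of the 20 sets of 6 mice (10 genes in 2 groups) 4 were past it, where chance gives about 1 if values are normally distributed. The ratio was taken on FPKM and not on the log2 scale used elsewhere, on which a high value stands out less. The sets also share mice, so 4 against 1 does not show an excess. Exe 4 stood above the other Exe mice in Ddit3, with 15.41 FPKM where the rest lay between 3.74 and 6.78 FPKM (ratio 0.74), and likewise in Atf4, at 84.30 FPKM against 58.94 to 67.79 FPKM (0.651). Con 3 stood above the other Con mice in Dnajb9, at 51.33 FPKM against 27.83 to 33.13 FPKM (0.774). Con 2 stood above the other Con mice in Hsp90b1, at 310.63 FPKM against 231.42 to 260.14 FPKM (0.637).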

How the results depend on the processing

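Of 918 values recomputed under alternatives, 864 stayed near the reported ones: tested values kept their sign and side of the threshold, counts stayed within 1.5 times and list medians moved by less than the spread between mice. In the reported fit the smallest adjusted p over all genes was 0.519 (limma), so single genes could hardly cross the threshold. A count that stayed at 0 was also near by this rule. The total of 864 is therefore no measure of how stable the fold changes were. Past both thresholds, 0 of the 10 genes and 0 of all genes passed in each of the 21 alternatives of the limma fit on FPKM. In the reported fit 636 genes passed an unadjusted p of 0.05 from limma. When low genes were not filtered out, 1 gene reached an adjusted p of 0.05 from limma. Of the 10 genes, 2 passed an unadjusted p of 0.05 with a pseudocount of 0.1, with the replicate block and with the acute-phase covariate, and with each mouse left out 0 to 3 did so: 0 without Exe 6, 2 without Con 1 or Con 5, and 3 without Con 2, Exe 3 or Exe 4. The count over all genes at this p ranged from 418 (without Exe 2) to 910 (without Exe 5). Of the ER chaperones, 2 passed with quantile normalization and 2 with the red blood cell covariate (list medians 0.112 and 0.142, reported 0.144), and 4 to 9 with each mouse left out. Quantile normalization moved the share of higher genes among those at an unadjusted p of 0.05 from 68.7% to 56.8%.

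Directions changed for Atf4 (log2 fold change -0.01 with quantile normalization, -0.04 with the acute-phase covariate, -0.09 to 0.07 with each mouse left out), Ddit3 (0.02 with the red blood cell covariate, -0.34 to 0.02), Asns (-0.04 with that covariate, -0.07 to 0.33) and Herpud1 (-0.17 to 0.01). Of the 45 pairs, 0 to 4 passed the adjusted permutation p with each mouse left out, with 0 without Con 4, Con 5, Con 6, Exe 1 or Exe 3, 1 without Con 2 or Con 3, and 4 without Exe 2. The cause of these shifts was not tested. Asns, Eif2ak4 and Sesn2 gave no value with a mean of at least 5 FPKM, since they are below it.

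For mice with the same number in both groups, the labels give no link beyond the number. Their deviations from the group means correlated between -0.478 and 0.165, and 2 of 12 mice correlated best with their own number. Whether they shared a batch was not tested. With the replicate number as a block in limma, 567 genes passed an unadjusted p of 0.05 and 0 passed an adjusted one, and the unadjusted p of Trib3 went from 0.0517 to 0.00193 (adjusted p 0.863, limma). The intervals were widest for Asns (-0.69 to 0.86), where 6 mice a group leave the size of a difference least certain.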
